A study of Arabidopsis thaliana with 12 samples.

Results

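EXPA7, EXPA18 and GH9C1 are 3 Arabidopsis genes of root-hair cell walls, and they were chosen by name: every probe set paired with one of these genes and with no other gene was taken. Each gene had 1 such probe set, so 3 of the 13355 genes with a probe set of their own are described. Their loci are AT1G12560 for EXPA7, AT1G62980 for EXPA18 and AT1G48930 for GH9C1. The rule used no measured value, but earlier results of these arrays were known when the genes were picked.

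A root hair is a tubular outgrowth of a single epidermal cell of the root, and it lengthens at its tip, where the wall has to yield while new wall is laid down. EXPA7 and EXPA18 encode alpha-expansins, secreted proteins that loosen the wall without cutting its polymers, and both are known in Arabidopsis for expression in root-hair cells. GH9C1 encodes an endoglucanase of glycoside hydrolase family GH9, whose members cut beta-1,4-glucan chains such as cellulose. Hair formation depends on auxin, ethylene and the hair-cell transcription factors, and brassinosteroids are known to act on the patterning of the root epidermis.

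RNA came from whole dark-grown seedlings of the Columbia ecotype, aged 4 days, that had germinated under 8 h of light. The 6 groups were the msg2 mutant with 24-eBL, the msg2 mutant with mock treatment, the axr2 mutant with 24-eBL, the axr2 mutant with mock treatment, the wild type with 24-eBL and the wild type with mock treatment. Each group held 2 arrays, stated to be biological replicates. The compound 24-eBL (24-epibrassinolide) is a brassinosteroid, and treated seedlings stood on medium with 100 nM of it throughout growth in the dark. MSG2 and AXR2 encode Aux/IAA repressors of auxin-responsive transcription, and the mutants known under these names are dominant and auxin-resistant. The labels give no allele. Because whole seedlings were used, fewer hair cells and less RNA per hair cell cannot be told apart, and no count of hairs was available here.

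Values are log2 signals, so a difference of 1 is a 2-fold difference. The 40th percentile of an array, which lay at 5.99 to 6.33, served as a floor, and a signal that did not exceed it is called dim, because so low a signal is a poor measure of the gene. Where the lower group had such signals, the fold is printed as a lower bound, computed with each of them set to the floor. A change was called at an adjusted p under 0.05 in 1 limma fit over all 15046 probe sets tested. All 3 genes passed the filter for testing. EXPA7 and GH9C1 exceeded the floor on all 6 mock arrays but on 1 treated array each, so they passed through the mock arrays, where they were high. Arrays of 1 group correlated at 0.968 to 0.979 over the probe sets tested, and arrays of different groups at 0.890 to 0.968. PYK10, a beta-glucosidase of endoplasmic reticulum bodies known mainly from roots and the one measured gene of 16 listed for root tissue, read 14.03 to 14.58, between percentiles 99.6 and 99.9 of the arrays.

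EXPA18 was lower with 24-eBL in all 3 genotypes, and no array of it was dim. In msg2 it read 6.44 and 6.22 with 24-eBL, against 9.49 and 9.13 with mock treatment. In axr2 the treated arrays read 7.66 and 6.96, against 8.87 and 8.85 on the mock arrays. In the wild type they read 6.39 and 6.64 with 24-eBL, against 8.46 and 8.61 with mock treatment. All 6 treated arrays lay under all 6 mock arrays, with 0.80 between the highest treated and the lowest mock value. Within its array the gene stood between percentiles 41.4 and 58.4 in treated seedlings, against percentiles 69.2 and 80.5 in mock seedlings.

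Per genotype, EXPA18 fell by 2.98 ± 0.24 (SE) on the log2 scale in msg2, or 7.88-fold (limma adjusted p = 4.5e-07). It fell by 2.02 ± 0.24 in the wild type, or 4.05-fold (limma adjusted p = 2.3e-05), and by 1.55 ± 0.24 in axr2, or 2.93-fold (limma adjusted p = 9.2e-04). Averaged over the 3 genotypes it fell by 2.18 ± 0.14, or 4.54-fold (limma adjusted p = 3.6e-09). These 4 falls kept their calls whichever of the 12 arrays was left out. Of all probe sets tested, 2.39% were called lower in msg2, 1.71% in axr2, 2.47% in the wild type and 4.97% in the mean over genotypes.

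**Figure D1:**
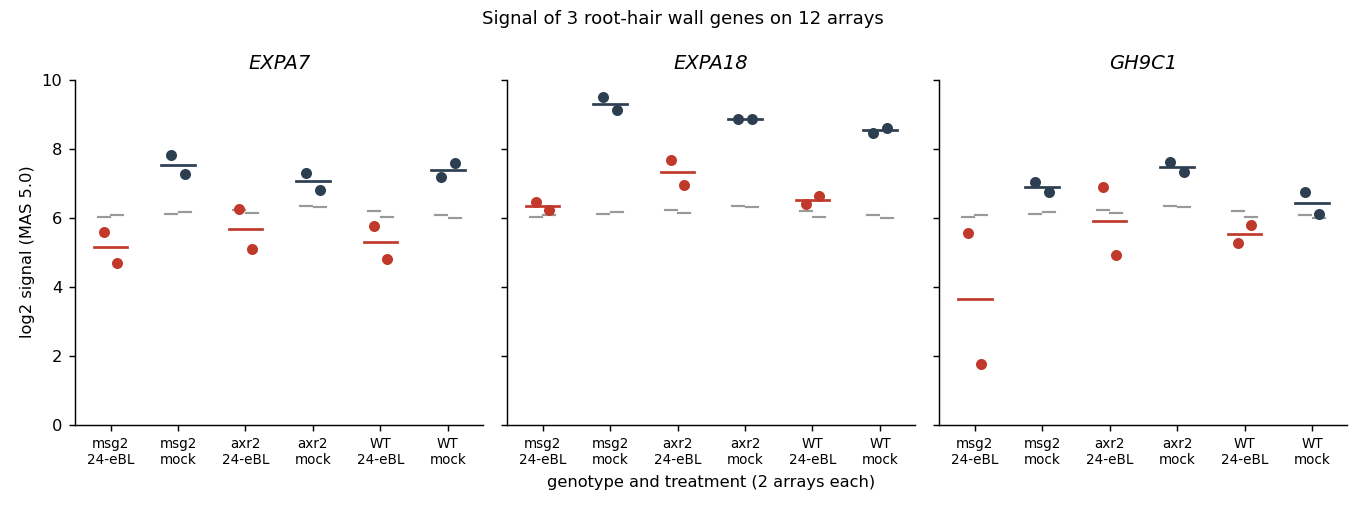
Log2 signal of EXPA7, EXPA18 and GH9C1 (y axis) on each of the 12 arrays, by genotype and treatment (x axis). Red points are 24-eBL arrays and dark points mock arrays, coloured bars are group means of 2 arrays, and short grey bars mark the 40th percentile of each array. EXPA18 treated arrays lie at 6.22 to 7.66, against 8.46 to 9.49 on mock arrays, while most treated values of EXPA7 and GH9C1 lie at or under the grey bars.

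EXPA7, the other hair-cell expansin, was also lower with 24-eBL, down to dim values on 5 of 6 treated arrays and on 0 of 6 mock arrays. In msg2 it read 5.60 and 4.68 with 24-eBL, against 7.82 and 7.26 with mock treatment. In axr2 it read 6.24 and 5.08 on treated arrays, against 7.31 and 6.81 on mock arrays. In the wild type the treated arrays read 5.77 and 4.81, against 7.18 and 7.58 with mock treatment. As for EXPA18, all 6 treated arrays lay under all 6 mock arrays, here with a gap of 0.57. The gene stood between percentiles 24.4 and 40.3 of the treated arrays, against percentiles 46.0 and 60.4 of the mock arrays.

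The log2 change of EXPA7 was -2.40 ± 0.45 (SE) in msg2, at least 2.79-fold lower (limma adjusted p = 0.0039), and -2.09 ± 0.45 in the wild type, at least 2.43-fold lower (limma adjusted p = 0.0094). In axr2 the change of -1.40 ± 0.45 did not pass (limma adjusted p = 0.121), although its 95% interval of -2.35 to -0.45 held no value of 0. Over the 3 genotypes EXPA7 fell by 1.96 ± 0.26 as fitted (limma adjusted p = 4.6e-05), or at least 2.32-fold with the dim signals set to the floor. The msg2 call was lost without msg2 mock replicate 1 (limma adjusted p = 0.093) or msg2 24-eBL replicate 2 (0.062). The wild-type call was lost without wild-type mock replicate 2 (limma adjusted p = 0.11), without wild-type 24-eBL replicate 2 (0.10) or with no intensity trend in the variances (0.052). The mean over genotypes kept its call in all 12 leave-outs.

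GH9C1, the endoglucanase, spread most between arrays of a group, with SDs up to 2.68, against up to 0.82 for EXPA7 and 0.49 for EXPA18. In msg2 it read 5.55 and 1.76 with 24-eBL, against 7.03 and 6.73 with mock treatment. In axr2 it read 6.90 and 4.91 with 24-eBL, against 7.61 and 7.32 with mock treatment. In the wild type it read 5.27 and 5.79 on treated arrays, against 6.75 and 6.11 on mock arrays. Within each genotype the treated arrays lay under the mock arrays, but across genotypes they overlapped, since the first treated axr2 array (6.90) exceeded 3 of the mock arrays. Of the treated arrays 5 of 6 were dim, against 0 of 6 mock arrays, and the value of 1.76 stood at percentile 8.16 of its array.

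GH9C1 was called lower in msg2, with a log2 change of -3.23 ± 0.82 (SE) that allows a fold of at least 1.77 (limma adjusted p = 0.0315). The change was -1.56 ± 0.82 in axr2 (limma adjusted p = 0.377) and -0.90 ± 0.82 in the wild type (limma adjusted p = 0.672), and neither passed. Over the 3 genotypes it fell by 1.90 ± 0.47 as fitted (limma adjusted p = 0.0155), or at least 1.63-fold with the dim signals set to the floor. The msg2 call rested on few arrays: without msg2 24-eBL replicate 2, the array at 1.76, the change was -1.33 (limma adjusted p = 0.33). It was also lost without msg2 mock replicate 1 (limma adjusted p = 0.21) or mock replicate 2 (0.14), and with each dim signal set to the floor it was -0.83 (0.095). With no filter, no intensity trend or a robust fit the limma adjusted p was 0.093, 0.17 and 0.11. The mean over genotypes lost its call without wild-type mock replicate 1 (limma adjusted p = 0.052) or axr2 24-eBL replicate 2 (0.058), and with no intensity trend (0.10) or a robust fit (0.061).

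**Figure D2:**
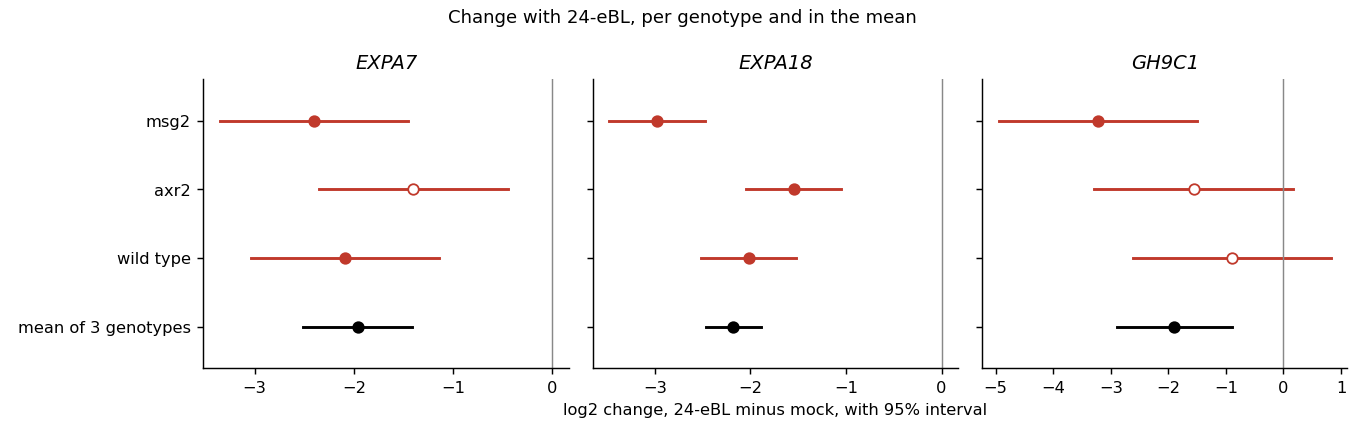
Log2 change of each gene with 24-eBL (x axis, treated minus mock) in msg2, axr2, the wild type and the mean of the 3 genotypes (rows), with the 95% interval of the limma fit. Filled circles passed an adjusted p under 0.05. EXPA18 passed in every row, EXPA7 in all but axr2, and GH9C1 in msg2 and the mean.

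Set against the whole array, a separation of treated under mock arrays within 1 genotype was common, at 25.7% of probe sets in msg2, 25.2% in axr2 and 20.6% in the wild type. It held in each of the 3 genotypes for 3.41% of probe sets, and for EXPA7, EXPA18 and GH9C1 alike. All 6 treated arrays under all 6 mock arrays was found for 0.95% of probe sets, among them EXPA7 and EXPA18 but not GH9C1.

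The order of the group means, from high to low, showed how the genotypes lay within each treatment. For EXPA18 it was msg2 mock at 9.31 ± 0.25 (SD, n = 2), axr2 mock at 8.86 ± 0.01, wild-type mock at 8.53 ± 0.11, axr2 with 24-eBL at 7.31 ± 0.49, wild type with 24-eBL at 6.51 ± 0.18 and msg2 with 24-eBL at 6.33 ± 0.15. Of neighbours in this order, the last pair overlapped and the others did not. How many of all probe sets have such neighbours apart was not counted. Non-overlap here and for EXPA7 and GH9C1 therefore does not settle an order of genotypes. Neither mutant was called against the wild type for EXPA18 on mock arrays (limma adjusted p = 0.0746 in msg2 and 0.302 in axr2). EXPA7 ran in the order msg2 mock at 7.54 ± 0.39 (SD, n = 2), wild-type mock at 7.38 ± 0.29, axr2 mock at 7.06 ± 0.35, axr2 with 24-eBL at 5.66 ± 0.82, wild type with 24-eBL at 5.29 ± 0.67 and msg2 with 24-eBL at 5.14 ± 0.65. Its only neighbours that did not overlap were axr2 mock and axr2 with 24-eBL, where the order passed from mock to treated seedlings.

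For GH9C1 the order began with axr2 mock at 7.47 ± 0.21 (SD, n = 2), followed by msg2 mock at 6.88 ± 0.21 and wild-type mock at 6.43 ± 0.45. The treated groups followed, with axr2 at 5.91 ± 1.40, the wild type at 5.53 ± 0.37 and msg2 at 3.65 ± 2.68. Only axr2 mock and msg2 mock did not overlap among its neighbours. Since 5 of the 6 treated arrays were dim for GH9C1 and for EXPA7, the order of the treated groups is not read for these genes.

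The mutants were next set against the wild type within each treatment, and both mutants share the same wild-type arrays. How many of all probe sets have mutant and wild-type arrays apart was not counted. With 24-eBL, EXPA18 was 0.80 ± 0.24 (SE) higher in axr2 than in the wild type on the log2 scale, or 1.74-fold, with arrays that did not overlap (limma adjusted p = 0.0168). That call was lost without axr2 24-eBL replicate 1 (difference 0.45, limma adjusted p = 0.26) or wild-type 24-eBL replicate 1 (0.67, adjusted p = 0.11), and when only the 4 treated arrays concerned were fitted (0.082). Treated axr2 differed from treated wild type for 28.6% of probe sets tested, so 1 call among 3 genes was near the background. EXPA7 and GH9C1 differed there by 0.37 and 0.38 (limma adjusted p = 0.589 and 0.772), with overlapping and mostly dim arrays.

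Between treated msg2 and treated wild type none of the 3 genes passed, in a comparison where 7.5% of probe sets were called. The log2 differences were -0.15 for EXPA7 (95% interval -1.10 to 0.80), -0.18 for EXPA18 (-0.68 to 0.32) and -1.88 for GH9C1 (-3.60 to -0.15), with limma adjusted p of 0.896, 0.726 and 0.195. The GH9C1 value turned on the 2 unlike msg2 arrays: without msg2 24-eBL replicate 1 it was -3.77 and called (limma adjusted p = 0.0041), and without replicate 2 it was 0.020. Both groups were dim for GH9C1 and for EXPA7.

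Without 24-eBL, none of the 3 genes passed in either mutant. In msg2, EXPA18 was 0.78 ± 0.24 (SE) higher than in the wild type, with the arrays at 9.49 and 9.13 in msg2 apart from those at 8.46 and 8.61 in the wild type (limma adjusted p = 0.0746). That value passed without axr2 24-eBL replicate 1 (limma adjusted p = 0.049) or replicate 2 (0.047), 2 arrays of neither group that enter through the shared estimate of spread, and when only the 4 mock arrays of msg2 and the wild type were fitted (0.018). EXPA7 and GH9C1 differed by 0.16 (95% interval -0.79 to 1.11) and 0.45 (-1.27 to 2.18) between untreated msg2 and untreated wild type. Of all probe sets, 4.11% were called in this comparison, or 619, a count that was 144 without msg2 mock replicate 2.

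Untreated axr2 differed from untreated wild type for 35.4% of all probe sets, and the median of all tested lay 0.13 above 0. The 3 genes were not among those called. EXPA7 stood at -0.32 (95% interval -1.27 to 0.63), EXPA18 at 0.33 (-0.17 to 0.83) and GH9C1 at 1.04 (-0.68 to 2.76), with limma adjusted p of 0.617, 0.302 and 0.346. For GH9C1 the axr2 arrays at 7.61 and 7.32 lay above the wild-type arrays at 6.75 and 6.11, and the same difference passed when only these 4 arrays were fitted (limma adjusted p = 0.023) or with dim signals set to the floor (0.0050). EXPA18 also kept its axr2 arrays above those of the wild type, by 0.24, and EXPA7 arrays overlapped. With 35.4% of probe sets called here and no count of separated arrays over all of them, these separations are not read as differences.

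**Figure D3:**
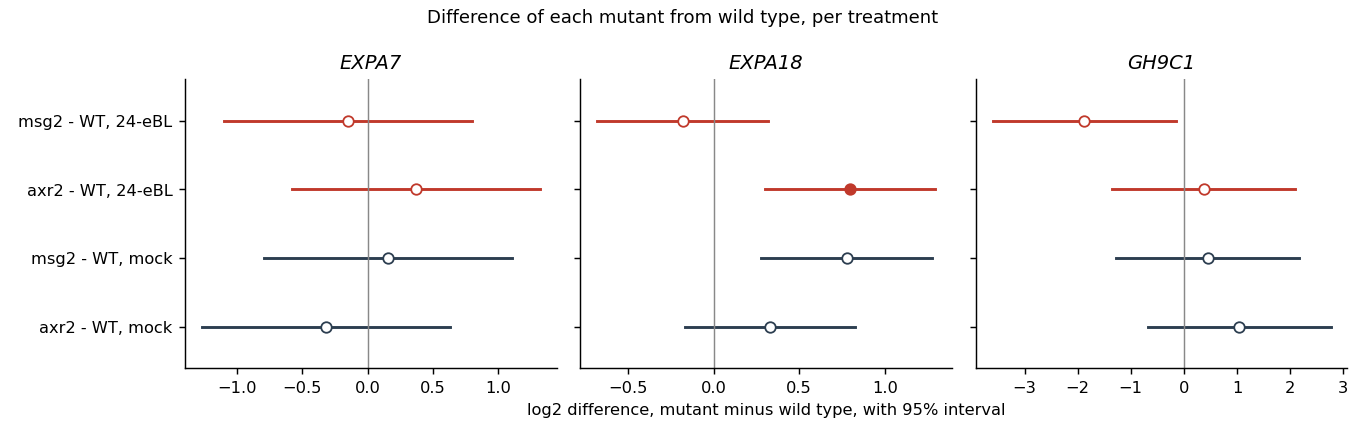
Log2 difference of each mutant from the wild type (x axis, mutant minus wild type) with 24-eBL (red, upper rows) and with mock treatment (dark, lower rows), with the 95% interval of the limma fit. The 1 filled circle, EXPA18 in treated axr2 at 0.80, passed an adjusted p under 0.05.

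Whether the response itself differed between genotypes was tested as a difference of differences. None of the 9 such differences of the 3 genes passed. The widest apart in EXPA18 were axr2 and msg2, whose changes of -1.55 and -2.98 differed by 1.43 ± 0.34 (SE, 95% interval 0.72 to 2.13, limma adjusted p = 0.0707). This difference passed without axr2 24-eBL replicate 2 (1.78, limma adjusted p = 0.022). Between msg2 and the wild type, EXPA18 gave -0.96 (95% interval -1.67 to -0.25, limma adjusted p = 0.361), and between axr2 and the wild type 0.47 (-0.24 to 1.17, adjusted p = 0.523).

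For EXPA7 the difference of responses was -0.31 (95% interval -1.65 to 1.03) between msg2 and the wild type, 0.69 (-0.65 to 2.03) between axr2 and the wild type and 1.0 (-0.34 to 2.34) between axr2 and msg2. For GH9C1 the corresponding differences were -2.33 (-4.76 to 0.11), -0.66 (-3.10 to 1.77) and 1.66 (-0.77 to 4.10). Intervals this wide hold responses that are alike and responses that differ more than 2-fold. Over all probe sets the differences called were 0.213% between msg2 and the wild type, 2.59% between axr2 and the wild type and 0.545% between axr2 and msg2.

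Other genes of the same families and cell type were set beside these 3. Of 60 further root-hair genes listed, 5 had a probe set of their own and 3 were tested, among them CSLD2, which encodes a cellulose synthase-like protein of hair tip growth, and AT4G26010. AT4G26010 read 9.27 and 9.16 in treated msg2 against 10.55 and 10.55 in mock msg2, and 8.31 and 9.02 in the treated wild type against 9.45 and 9.56 in the mock wild type. It fell by 1.34 ± 0.20 (SE) in msg2 (limma adjusted p = 4.5e-04) and by 0.84 ± 0.20 in the wild type (0.0183), and its change in axr2 was -0.37 (0.396). Its treated and mock arrays did not overlap in any of the genotypes, with axr2 at 9.86 and 10.02 with 24-eBL against 10.44 and 10.17 with mock treatment. Treated arrays lay under mock arrays for 25.2% of all probe sets in axr2, and for 3.41% in each of the 3 genotypes.

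CSLD2 was not called in any response to 24-eBL, with changes of -0.11 in msg2, -0.07 in axr2 and 0.16 in the wild type. AT4G26010 was also higher in both untreated mutants than in the untreated wild type, by 1.04 in msg2 and 0.81 in axr2 (limma adjusted p = 0.0060 and 0.0044). Of the 3 root-hair genes tested, 1 was called higher and 1 lower in untreated axr2, and likewise in treated axr2, each against the wild type. Of all probe sets, 35.4% were called either way in the untreated comparison and 28.6% in the treated one. The hair-growth transcription factor RSL3 was dim on 12 of 12 arrays and XTH26, a wall-remodelling enzyme of hairs, on 11 of 12, so neither was tested. Of the 10 patterning genes of the root epidermis, TRY, known as an inhibitor of trichome fate in the shoot, alone had a probe set of its own, and it was dim on all 12 arrays. The 4 shoot-epidermis genes listed had none, so the share of each epidermal type in the RNA was not measured.

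Among 24 other alpha-expansins 6 were tested. None was called in msg2 or axr2, and EXPA15 fell in the wild type by 0.89 (limma adjusted p = 0.0084) and in the mean over genotypes by 0.49 (0.0067). Their median change was 0.08 in msg2, 0.21 in axr2 and 0.18 in the wild type. EXPA8 differed most in another comparison, at -3.49 in untreated axr2 against untreated wild type (limma adjusted p = 3.1e-11), where EXPA7 and EXPA18 were not called. EXPA9 was called the other way there, at 0.52 (limma adjusted p = 0.032), and 35.4% of all probe sets were called. Of the 7 tested genes of the other expansin classes 0 fell in any genotype. EXLA3, dim on both mock arrays of msg2 and on 1 of the wild type, rose at least 2.22-fold in msg2 and at least 2.59-fold in the wild type (limma adjusted p = 0.0082 and 0.022), and EXLB1 rose by 1.25 in axr2 (0.017). Of all probe sets, 1.52% were called higher in msg2, 0.691% in axr2 and 2.19% in the wild type. Called lower were 2.39% in msg2, 1.71% in axr2, 2.47% in the wild type and 4.97% in the mean over genotypes. With shares this low, 0 called lower among 6 or 7 genes was near the background.

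Of the 24 GH9 endoglucanases other than GH9C1, 9 were tested. None was called in msg2 or axr2, and GH9B18, dim on both treated wild-type arrays, fell at least 1.24-fold in the wild type (limma adjusted p = 0.036). GH9B12, dim on 5 of 12 arrays, rose in the mean over genotypes (limma adjusted p = 0.0097). Of all probe sets, 2.39% were called lower in msg2, 1.71% in axr2 and 2.47% in the wild type. Called higher were 1.52%, 0.691% and 2.19% in the same order, and 561 of 15046 in the mean over genotypes. With shares this low, 0 called among 9 genes in msg2 and axr2 was near the background. GH9C2 and GH9C3, which share the class of GH9C1, were not called in any response. Both were called in untreated axr2 against untreated wild type, where 35.4% of all probe sets were called. GH9C2 stood at -1.75 there (limma adjusted p = 6.2e-06), and GH9C3, dim on both wild-type mock arrays, was at least 2.98-fold higher (0.011).

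The xyloglucan endotransglucosylase/hydrolase (XTH) genes, whose enzymes cut and rejoin xyloglucan in the wall, were also listed. Of 8 tested, 3 rose in msg2 and 4 in the wild type, 0 fell in either, and 1 fell in axr2. Of all probe sets, 1.52% were called higher in msg2 and 2.19% in the wild type. The shares called lower were 2.39% in msg2, 2.47% in the wild type and 1.71% in axr2. XTH20 rose by 1.68 in msg2 and by 2.33 in the wild type (limma adjusted p = 1.9e-04 and 2.6e-06), and its change in axr2 was -0.80 (0.075). Over all 8 the median change was 0.62 in msg2, -0.12 in axr2 and 0.81 in the wild type. The brassinosteroid list had 1 gene with a probe set of its own, the receptor kinase gene BRL1, which was dim on 10 of 12 arrays and was not called in any response.

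**Figure D4:**
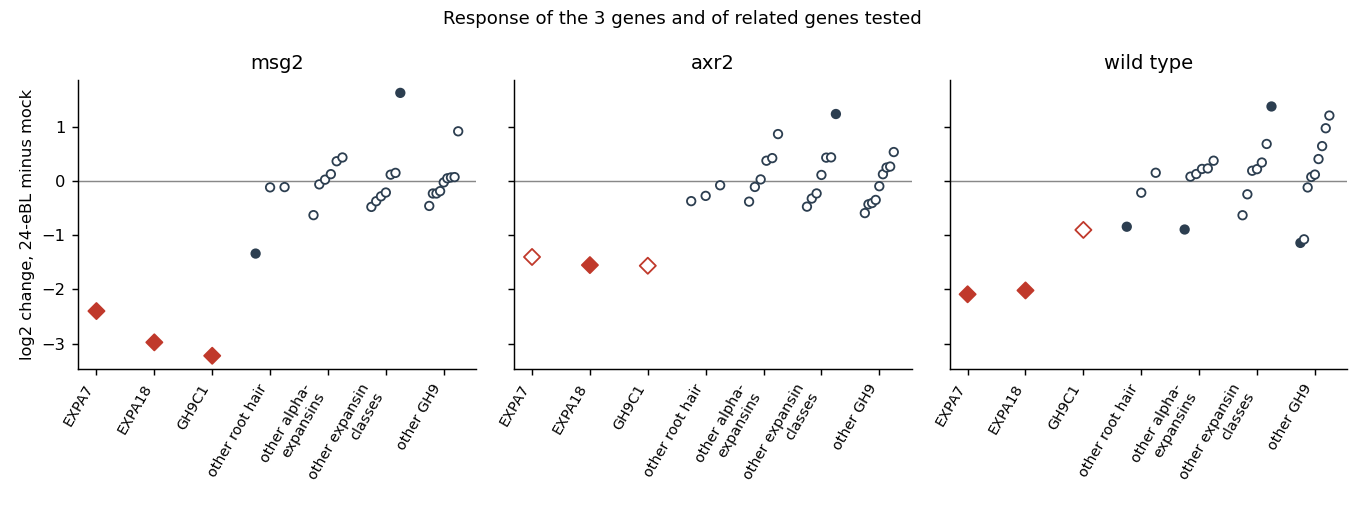
Log2 change with 24-eBL (y axis, treated minus mock) in msg2, axr2 and the wild type (panels) for EXPA7, EXPA18 and GH9C1 (red diamonds) and for the tested genes of 4 related lists (dark circles). Filled symbols passed an adjusted p under 0.05. In msg2 the 3 genes lie at -2.40, -2.98 and -3.23, of which the values of EXPA7 and GH9C1 rest on dim treated signals, and AT4G26010 lies at -1.34.

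The genes whose signal followed each of the 3 most closely were found by Pearson correlation with 1159 other single-gene probe sets with a symbol over the 12 arrays. Treated and mock arrays lay apart for EXPA7 and EXPA18, and all genes share the same arrays, so r describes likeness and has no test. EXPA7 was most like PYK10 (r = 0.94), then EXPA18 (0.93), LEA18 (0.88), SP1L4 (0.87) and the jacalin-related lectin gene JAL22 (0.86). EXPA18 was most like EXPA7 (0.93), then SP1L4 (0.92), JAL22 (0.92), PYK10 (0.87) and JAL34 (0.87). Within a treatment some of these values were low or negative. EXPA7 and EXPA18 correlated at 0.59 within the 6 treated and 0.45 within the 6 mock arrays, EXPA7 and PYK10 at 0.98 and -0.24, EXPA7 and JAL22 at -0.05 and 0.78, and EXPA7 and GH9C1 at 0.70 and -0.37.

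GH9C1 was most like PYK10 (r = 0.79), PSY1R, a receptor kinase gene (0.76), LUL4 (0.75), EXPA18 (0.75) and EXPA7 (0.74). It ranked 20 in the list of EXPA18 and 21 in that of EXPA7. PYK10, near the top of the signal range, fell by 0.34 ± 0.08 (SE) in the mean over genotypes (limma adjusted p = 0.0071). LEA18, dim on the treated arrays of axr2 and the wild type, fell at least 3.33-fold in the mean over genotypes (limma adjusted p = 1.6e-06). JAL22 fell by 1.52 ± 0.10 (limma adjusted p = 8.9e-09). SP1L4 fell by 1.09 ± 0.16 (limma adjusted p = 1.7e-04), and its treated axr2 arrays, at 7.16 and 6.17, differed in the same sense as those of all 3 wall genes.

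**Figure D5:**
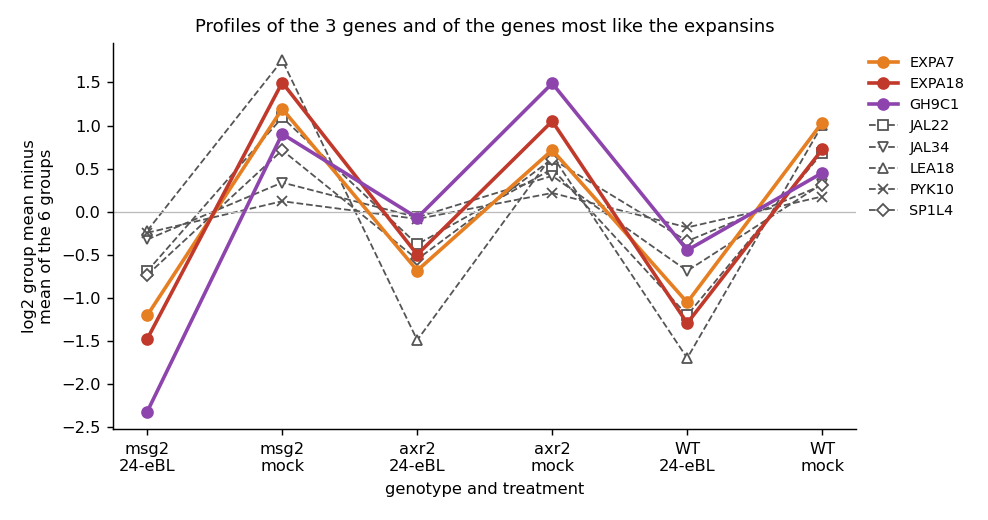
Group mean of each gene on the log2 scale minus its mean over the 6 groups (y axis), by genotype and treatment (x axis; lines only join the groups of 1 gene). EXPA7, EXPA18 and GH9C1 are drawn solid and the 5 genes most like the expansins dashed. All 8 genes lie lower with 24-eBL than with mock treatment in each genotype, which for the 5 follows largely from their choice by likeness.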

How the data were processed

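Total RNA of 12 samples was hybridised to Affymetrix ATH1 arrays. The authors deposited log2 signals made with MAS 5.0, per the series' design text, which also names GeneSpring; further processing settings are not given in the sources used here. The 2% trimmed mean of linear signals was 492.6 to 493.6 on every array, so the arrays were not rescaled. Depth does not apply to arrays; their number limits the precision. Of 22810 probe sets 64 controls were left out; of the other 22746, 13513 were paired with 1 gene in the platform table, 503 with several and 8730 with none. Symbols are those of RefSeq for TAIR10.1, matched by gene ID (13436 probe sets) or locus (48); 29 stayed as in the platform table.

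Testing required signal over the array's own 40th percentile on 2 or more of 12 arrays, which left 15046 probe sets. limma 3.58.1 (R 4.3.3) fitted 1 mean per group to all 12 arrays, with eBayes variances following intensity, 6 residual and 12.04 prior degrees of freedom, and a median residual SD of 0.219. The Benjamini-Hochberg adjustment ran over these 15046 within each comparison. On simulated data for the wild-type response, 50 of 50 genes lowered 4-fold and 37 of 50 lowered 2-fold were called, and 4 of 14846 unchanged ones. The changed genes were drawn only from probe sets with a higher mean signal than EXPA7, EXPA18 and GH9C1. The shares therefore do not describe how well changes of those genes are found.

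The members and the gene lists (root hair, root epidermis patterning, alpha-expansins, other expansin classes, GH9, XTH, brassinosteroid, root tissue and shoot epidermis) were chosen with earlier results of these data known; of 205 listed genes 47 had a single-gene probe set. Genes named were the 3 members, the 5 most like each, and up to 6 per list, ranked by adjusted p in the mean response or in untreated axr2 against wild type; 1 root-hair gene tested is not reported here. Alternatives were another filter, scaling, offset, variance model, threshold, the replicate block, the compared arrays alone, and each array left out.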

Additional observations from a re-analysis of the deposited data

How the results depend on the processing

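The 3 responses of EXPA18, its mean over genotypes and the mean of EXPA7 kept direction and call under all alternatives run that tested them; under the filter at the 60th percentile EXPA7 and GH9C1 were not tested. The GH9C1 response in msg2 kept its change of -3.23 but lost its call with no filter, with no intensity trend and in the robust fit (limma adjusted p = 0.093, 0.17 and 0.11), and was -0.83 with dim signals set to the floor (0.095). The GH9C1 mean of -1.90 lost its call with no intensity trend (0.10) and in the robust fit (0.061), and the EXPA7 response of -2.09 in the wild type with no intensity trend (0.052). Untreated msg2 against wild type for EXPA18 (0.78) was called with the compared arrays alone (0.018) or at an adjusted p under 0.10, and untreated axr2 against wild type for GH9C1 (1.04) with dim signals raised (0.0050) or the compared arrays alone (0.023). Treated axr2 against wild type for EXPA18 (0.80) was not called with the compared arrays alone (0.082) or at a 2-fold minimum. The EXPA18 difference of responses between axr2 and msg2 (1.43) passed at an adjusted p under 0.10, and that of GH9C1 turned to -0.13 with dim signals raised. Where the change was the same, the alternative altered the variance, the threshold or the set of probe sets; otherwise the cause was not tested.

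With each array left out in turn, responses ran over -2.86 to -1.94 (EXPA7, msg2), -2.57 to -1.61 (EXPA7, wild type), -5.12 to -1.33 (GH9C1, msg2) and -2.53 to -1.26 (GH9C1, mean). Untreated msg2 against wild type ran over -0.12 to 0.44 (EXPA7) and 0.60 to 0.95 (EXPA18). Treated msg2 against wild type ran over -0.63 to 0.33 (EXPA7) and -3.77 to 0.020 (GH9C1). Treated axr2 against wild type ran over -0.21 to 0.95 (EXPA7), 0.45 to 1.15 (EXPA18) and -0.62 to 1.37 (GH9C1). Uncalled responses in axr2 ran over -1.98 to -0.82 (EXPA7) and -2.55 to -0.57 (GH9C1). Differences of responses ran over -4.22 to -0.43 (GH9C1, msg2 and wild type), 0.12 to 0.82 (EXPA18, axr2 and wild type), -0.79 to 0.17 (EXPA7, msg2 and wild type), -1.65 to 0.33 (GH9C1, axr2 and wild type), 1.08 to 1.78 (EXPA18, axr2 and msg2) and -0.23 to 3.56 (GH9C1, axr2 and msg2).

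The replicate numbers share no stated origin, and deviations of same-numbered arrays correlated at -0.08 to 0.07 over the 15 pairs of groups. With a replicate block no call of the 3 genes changed; the EXPA7 response in msg2 was -2.40 (limma adjusted p = 0.0011).

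Counts over all probe sets also moved. The response counts were 588 in msg2 (253 with no intensity trend, 935 with the compared arrays alone), 362 in axr2 (165 with no intensity trend, 664 at an adjusted p under 0.10), 701 in the wild type (386 at a 2-fold minimum) and 1309 in the mean (301 at a 2-fold minimum). Untreated, they were 619 for msg2 (174 with no intensity trend, 1043 under 0.10) and 5328 for axr2 (2236 at a 2-fold minimum); treated, 1129 for msg2 (397) and 4298 for axr2 (1786), both at a 2-fold minimum. Differences of responses gave 32 for msg2 and wild type (1 and 57), 390 for axr2 and wild type (126 and 703) and 82 for axr2 and msg2 (17 and 123), with no intensity trend and under 0.10. With 1 array left out the lowest counts were 237 (msg2), 196 (axr2) and 351 (wild type) for the responses, 144 and 3590 for untreated msg2 and axr2, 369 and 2819 for treated msg2 and axr2, and 15, 193 and 42 for the differences in the order above. Array number and low signals limit the precision.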

Other observations

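In treated axr2 all 3 genes read lower on replicate 2 than on replicate 1, by log2 differences of -1.16 for EXPA7, -0.70 for EXPA18 and -1.98 for GH9C1. Of all probe sets tested, at any signal level, 1.21%, 4.25% and 0.306% differed as far or farther in that sense. The replicate 2 values of EXPA7 and GH9C1 were dim. The 154 probe sets called lower in both msg2 and the wild type had a median difference of -0.01 between the same arrays. EXPA7 was lower on replicate 2 in treated msg2 and treated wild type as well, by -0.92 and -0.95. It was also lower there in untreated msg2 and untreated axr2 (-0.55 and -0.49), but higher in the untreated wild type (0.41). EXPA18 and GH9C1 were lower on replicate 2 of treated msg2 (-0.22 and -3.79) but higher on replicate 2 of the treated wild type (0.25 and 0.53).

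XTH20, which rose in msg2 and in the wild type, differed in its response between axr2 and the wild type by -3.13 ± 0.32 (SE, limma adjusted p = 3.2e-05) and between axr2 and msg2 by -2.48 ± 0.32 (6.7e-04). Those differences have the opposite sign to the 0.47 and 1.43 of EXPA18, neither of which passed. XTH20 rose and EXPA18 fell in msg2 and the wild type. In axr2 EXPA18 changed by -1.55, and XTH20 by -0.80 (limma adjusted p = 0.075). XTH20 stood 1.83 higher in untreated axr2 than in the untreated wild type (limma adjusted p = 9.2e-06). What the opposite signs come from was not tested.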
